A study of Mus musculus with 8 samples.

Results

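The 9 transcripts described here encode scavenger receptors that bind modified lipoproteins: Cd36, Msr1, Marco, Scarb1, Olr1, Cd68, Stab1, Lrp1 and Colec12. They were chosen by symbol from a list of these receptors, and all 9 of 9 had a row among the 15867 named genes of the deposited table. Poly(A) RNA was sequenced from adipose tissue macrophages, which were selected by the surface protein F4/80 (encoded by Adgre1) from mice fed a high-fat diet for 20 weeks. All mice carried loxP-flanked alleles of both Mirc11 and Mirc22, the clusters that encode microRNAs of the miR-24, miR-23 and miR-27 families. The control group (Mirc11fl/fl Mirc22fl/fl Lyz2+/+, 4 libraries) had unmodified Lyz2. The knockout group (Mirc11fl/fl Mirc22fl/fl Lyz2Cre/Cre, 4 libraries) carried Cre in both copies of Lyz2, the lysozyme gene that drives Cre in myeloid cells generally and not only in macrophages of fat. No group had Cre with intact clusters, so loss of the clusters, Cre and the loss of Lyz2 cannot be told apart. The labels give no age, strain or sex, and they do not say whether a replicate is 1 mouse. P-values therefore measure the spread between these samples.

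Scavenger receptors take up oxidised or acetylated lipoproteins, dying cells and bacterial products, and cholesterol loading does not shut them down. A macrophage that keeps importing such particles stores the cholesterol as droplets and becomes a foam cell. In obese fat the same receptors let macrophages clear the lipid and debris of dying adipocytes. Several of them are not restricted to macrophages: CD36 and SR-BI are abundant on endothelial cells and adipocytes, LRP1 on fibroblasts and adipocytes, and stabilin-1 and collectin-12 on some endothelial cells.

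Values are the authors' normalized gene counts, in which each library's reads were divided by 1 factor, from 31789395 to 46621080 recovered reads per library. A difference, as used here, is the log2(normalized count + 1) of knockout libraries minus that of controls, fitted with limma. Its p was adjusted over 15862 genes by the Benjamini-Hochberg method. By this fit 3.61% of all genes passed an adjusted p of 0.05, 2.38% as lower and 1.24% as higher in knockout macrophages. Lyz2 measured 175874 ± 22446 (SD, n = 4) in control and 208 ± 45.0 in knockout libraries, with no overlap, so all 8 libraries matched their label at this gene. Markers of the macrophage lineage were present in every library, and so were markers of vessel and connective tissue cells. The sum of 15 general macrophage genes ran from 436231 to 636779 in control and from 383847 to 409271 in knockout libraries. The sum of 13 endothelial genes ran from 97441 to 161371 and from 143935 to 210592. In bulk RNA of this kind, fewer cells of a type and less RNA per cell cannot be told apart.

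The seeds of the deleted microRNAs are shown first, since they define the bases that a direct target would carry in its 3′ untranslated region. Mature sequences are from RefSeq (GRCm38.p6), with the seed, bases 2 to 8, in capitals. The miR-27a and miR-27b forms share 1 seed, and miR-24 is made from both clusters. The sequence of miR-23b-3p was missing from the source used, so it is not shown, and the miR-23 search used the miR-23a-3p seed.
miR-23a-3p: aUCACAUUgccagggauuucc
miR-27a-3p: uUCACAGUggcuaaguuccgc
miR-27b-3p: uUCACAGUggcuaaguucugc
miR-24-3p: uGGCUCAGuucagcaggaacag
For every gene the longest 3′ untranslated region in the annotation was searched for the complement of the seed. A site has 8 bases (seed match followed by A) or 7 bases (seed match alone, or its last 6 bases followed by A). Of the 9 receptors 5 had at least 1 such site, beside 53.8% of 14796 genes with a searched region. An 8-base site was found in 2 of the 9, beside 19.7% of those genes. Marco, Stab1, Cd68 and Lrp1 had none, in searched regions of 121, 134, 158 and 1004 bases, where the median gene had 1182. A match is a description of letters and was not tested as a site of repression. The microRNAs themselves were not analysed here.

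Levels differed widely between the receptors. Per kilobase of the longest annotated coding transcript, the order in control libraries was Cd36 (43935 ± 6745), Cd68 (35103 ± 2016), Stab1 (9328 ± 935), Lrp1 (7789 ± 427) and Scarb1 (3340 ± 527). Then came Msr1 (1632 ± 145), Colec12 (320 ± 46.7), Marco (150 ± 48.3) and Olr1 (6.91 ± 0.941), all as normalized count per kilobase. Only Cd36 and Cd68 overlapped their neighbour in this order in control libraries. In knockout libraries the order was the same, and only Colec12 (372 ± 61.2) and Marco (128 ± 157) overlapped. The order depends on the transcript length chosen for each gene.

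**Figure D1:**
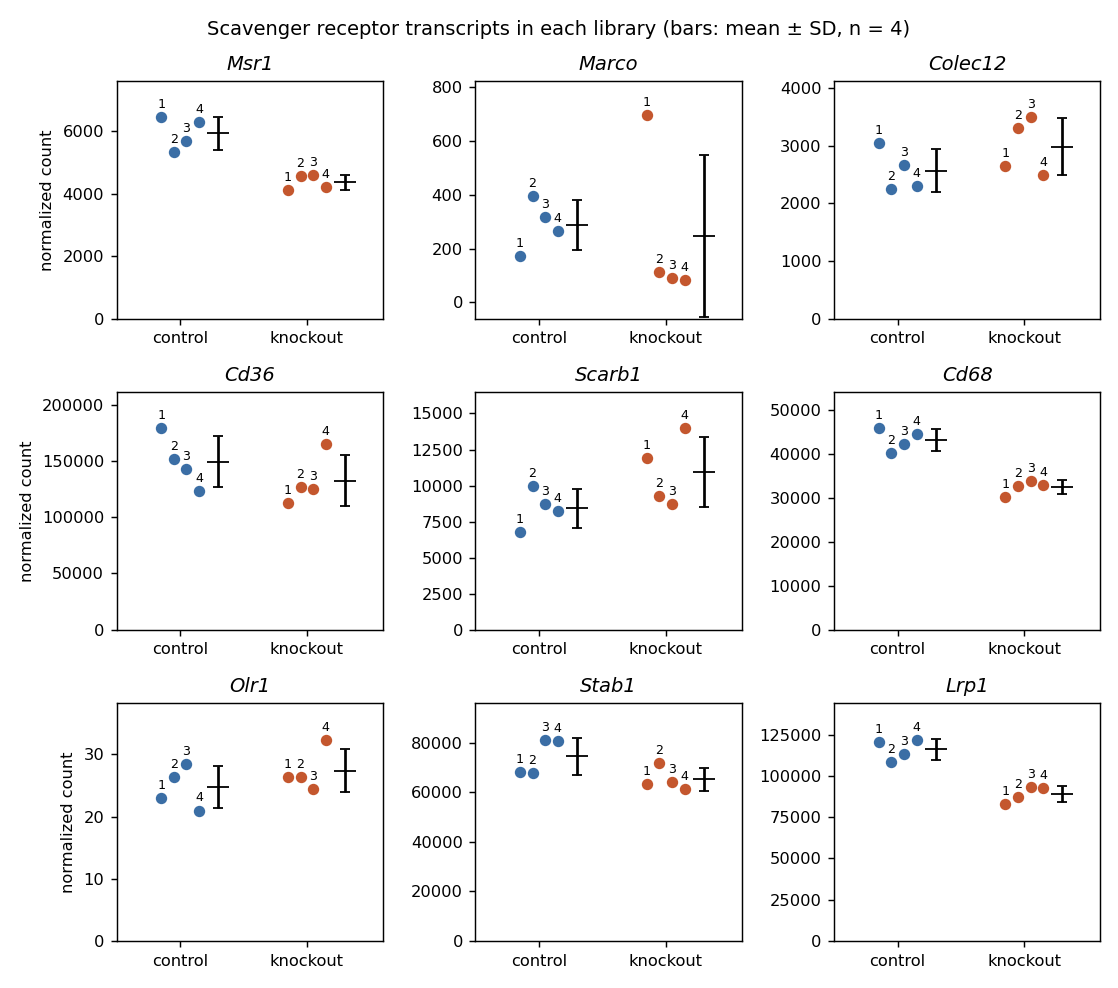
Normalized count (vertical axis, from 0, or from below 0 for Marco) of the 9 receptors in each library, with replicate numbers above points and mean ± SD beside each group of 4. Control and knockout points are fully separated for Msr1, Cd68 and Lrp1, and knockout replicate 1 stands far above the other 3 knockout libraries for Marco.

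Of the 9 receptors 2 fell in knockout macrophages, 0 rose and 7 did not pass, where 2.38% of all genes fell and 1.24% rose. The 2 that fell were Msr1 and Cd68. The median difference of the receptors was -0.19, beside 0.00 over all genes tested, and 6 of the 9 differences were below 0. Control and knockout libraries did not overlap for 3 receptors (Msr1, Cd68 and Lrp1), all lower in knockout, where 13.7% of all genes did not overlap and 8.21% did so as lower and 5.52% as higher in knockout.

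Msr1 encodes the class A scavenger receptor, a trimer whose collagen-like stalk binds acetylated and oxidised LDL, and which is largely confined to macrophages. Its normalized counts were 6442, 5318, 5679 and 6291 in the control libraries (replicates 1 to 4, here and below) and 4116, 4554, 4588 and 4212 in the knockout libraries. Every knockout library lay below every control library. The mean fell from 5933 ± 526 to 4368 ± 238, a log2 difference of -0.44 (SE 0.07, 95% interval -0.60 to -0.28, limma adjusted p = 0.0168). This is 0.738 of the control level. The gene lies on chromosome 8 from 39581685 to 39642673 (mm10, minus strand), 44.6 Mb from Mir23a of the Mirc11 cluster on the same chromosome.

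The Msr1 3′ untranslated region of 2518 bases held 3 sites of 7 bases, 1 for each microRNA family. They are shown because Msr1 is the receptor with the smallest p. Capitals mark the match, and each window is read 5′ to 3′ on the minus strand of mm10 chromosome 8.
Msr1 miR-24 site, chr8:39604200-39604228: caggacagaacCTGAGCCcatttctgtcg
Msr1 miR-27 site, chr8:39604019-39604047: gactagttattCTGTGAAaacatctagag
Msr1 miR-23 site, chr8:39603520-39603548: aaagagacaggATGTGAAttttgggcatc
Msr1 had matches to all 3 seeds and was lower in the knockout libraries, and whether these sites act on it was not tested. A 7-base or 8-base match was found in 24.8% of genes for miR-23, 29.3% for miR-27 and 26.4% for miR-24.

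Marco, a second class A receptor with a collagenous stalk, is known from macrophages of the lung, the splenic marginal zone and the peritoneal cavity. It measured 174, 395, 317 and 267 in control replicates 1 to 4. Knockout replicate 1 held 698, the highest of all 8 libraries, while knockout replicates 2 to 4 held 113, 90.3 and 83.0, the 3 lowest. The groups overlapped, and the difference of -0.82 had a wide error (SE 0.63, interval -2.24 to 0.61, limma adjusted p = 0.502). Without knockout replicate 1 the difference was -1.53 with limma adjusted p = 0.0408, where 1.32% of all genes passed. That library also had the highest mean log2 level of 7 B cell genes (9.25, against 7.42 to 8.53 elsewhere) and of 10 T and NK cell genes (6.47, against 4.65 to 5.88). It was the highest for endothelial (13.38), mural (12.86) and adipocyte (8.09) genes as well. It was not the highest for fibroblast, mesothelial, dendritic cell, eosinophil and mast cell, neutrophil or general macrophage genes. The part of other cell types in its Marco level was not tested.

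Colec12 encodes collectin-12, a class A receptor that ends in a C-type lectin domain and is best known from endothelial and other stromal cells. It measured 3053, 2243, 2659 and 2301 in control and 2656, 3310, 3494 and 2484 in knockout libraries. The groups overlapped, with knockout replicates 2 and 3 above all controls. The difference was 0.22 (SE 0.13, interval -0.09 to 0.52, limma adjusted p = 0.398). Its 3′ untranslated region of 5637 bases was the longest of the 9 and held 4 of the 13 sites found, including an 8-base miR-24 site. Of the class A receptors, then, Msr1 alone passed the test, and differences between the receptors themselves were not tested.

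Cd36, the class B receptor for oxidised LDL and long-chain fatty acids, was the most abundant of the 9 by reads and per kilobase. Its counts were 178850, 151853, 142972 and 123669 in control and 113021, 126792, 125296 and 164964 in knockout libraries. Knockout replicate 4 lay above 3 of the 4 controls. The means of 149336 ± 22925 and 132518 ± 22493 differed by less than the spread between libraries (-0.17, SE 0.16, interval -0.53 to 0.18, limma adjusted p = 0.566). A fall to 0.694 or a rise to 1.13 times the control level would lie within that interval. One 7-base miR-24 site was found in its 3′ untranslated region of 1660 bases.
Cd36 miR-24 site, chr5:17782797-17782825 (minus strand): caattcacatgTGAGCCActgcttatata

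Scarb1 encodes SR-BI, a class B receptor that takes cholesteryl ester from HDL and also binds modified LDL. It was the receptor with the highest positive difference. Control libraries held 6760, 9982, 8698 and 8244, and knockout libraries 11897, 9246, 8720 and 13965. Knockout replicates 1 and 4 exceeded every control, while replicates 2 and 3 lay inside the control range. The difference was 0.37 (SE 0.17, interval -0.01 to 0.74, limma adjusted p = 0.245), so no difference was shown. Knockout replicates 1 and 4 also had the highest mean log2 levels of 13 endothelial genes (13.38 and 13.35, against 12.22 to 13.01 elsewhere). The same held for 9 adipocyte genes (8.09 and 8.04, against 7.22 to 7.81 elsewhere), but for none of the other marker lists. The part of endothelial and adipocyte RNA in Scarb1 was not tested. Both sites in its 3′ untranslated region of 779 bases matched miR-24, and they are shown because Scarb1 had the highest difference.
Scarb1 miR-24 site, chr5:125277732-125277760 (minus strand): agtgccatggcCTGAGCCcccagatgtca
Scarb1 miR-24 site, chr5:125277592-125277620 (minus strand): taaatggcctgTGAGCCAggctgtgggaa

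Cd68 encodes macrosialin, a heavily glycosylated class D receptor of late endosomes and lysosomes that binds oxidised LDL and serves as a pan-macrophage marker. Control replicates 1 to 4 held 45797, 40209, 42188 and 44515, and knockout replicates 30167, 32595, 33904 and 33027. The groups were separated by a gap wider than the range of the knockout libraries. The mean fell from 43177 ± 2479 to 32423 ± 1600 (-0.41, SE 0.07, interval -0.57 to -0.25, limma adjusted p = 0.0190), to 0.751 of the control level.

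The Cd68 promoter is shown because the transcript fell and because it held the most motif types of the 6 receptors with a promoter in the RefSeq table (GRCm38.p6, from 250 bases before to 50 after the start). Capitals mark GAGGAA, the core letters bound by the macrophage factor PU.1, on either strand.
Cd68 promoter, chr11:69666121-69666420 (minus strand): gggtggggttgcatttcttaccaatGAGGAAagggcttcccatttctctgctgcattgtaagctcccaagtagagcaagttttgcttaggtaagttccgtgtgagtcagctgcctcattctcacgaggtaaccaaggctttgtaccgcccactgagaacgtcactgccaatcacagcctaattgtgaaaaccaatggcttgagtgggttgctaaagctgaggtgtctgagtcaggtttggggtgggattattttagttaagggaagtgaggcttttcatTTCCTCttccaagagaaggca
It held 2 matches to GAGGAA, 2 to the AP-1 letters TGANTCA and 1 to the C/EBP letters TTGCNNAA, none of which share bases with each other. GAGGAA occurred in the promoters of 4 of the 6 receptors (Cd68, Marco, Olr1 and Stab1), beside 28.3% of 32851 promoters. TGANTCA occurred in 2 (Cd68 and Olr1), beside 7.81%, and TTGCNNAA in Cd68 only, beside 10.8%. The letters TGANNNNGC of the antioxidant response element occurred in 2 (Cd68 and Lrp1), beside 41.3%, and in Cd68 they shared bases with TGANTCA. The MAF letters TGCTGA occurred in 2 (Cd36 and Stab1), beside 19.5%. The sterol element TCACNCCAC and the PPAR-RXR repeat occurred in 0 of 6, beside 1.24% and 0.0396%. The transcript of PU.1 itself, Spi1, measured 12436 ± 677 in control and 10782 ± 637 in knockout libraries (-0.21, SE 0.06, limma adjusted p = 0.107).

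Lrp1 encodes the large endocytic receptor that takes up apolipoprotein E-bearing remnants, aggregated LDL and protease complexes. It measured 120220, 108174, 113461 and 121984 in control and 83181, 87233, 93473 and 92785 in knockout libraries. All 4 knockout libraries were below all 4 controls, at 115960 ± 6359 against 89168 ± 4872. The difference of -0.38 (SE 0.09, interval -0.58 to -0.18) had a limma adjusted p of 0.0510, which just missed the threshold. On the recovered reads edgeR gave adjusted p = 0.0266 and DESeq2 4.35e-07, by which 3.51% and 10.9% of all genes passed, and both also called Msr1 and Cd68. Limma's adjusted p was 0.0281 when only genes with a mean of at least 50 were tested, of which 4.75% passed. Lrp1 lies on chromosome 10 from 127538161 to 127621148, 10.3 Mb from Lyz2, which holds the Cre insertion.

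The genes most like each of these 3 receptors were found by Pearson's r of log2 values over the 8 libraries, a measure that includes the difference between the groups. For Cd68 they were Ptpro, a receptor tyrosine phosphatase (r = 0.998), Zdhhc9, a palmitoyltransferase (0.996), and Lrp1 itself (0.993). For Lrp1 they were Zdhhc9 (0.996), Ptpro (0.993) and Plekho2 (0.993), and for Msr1 Sh3bgrl3 (0.990), Psd4 (0.989) and Dock2, a Rac activator of leukocytes (0.988). Ptpro, Zdhhc9, Plekho2, Sh3bgrl3, Psd4 and Dock2 passed as lower in knockout (log2 differences of -0.44, -0.36, -0.40, -0.36, -0.43 and -0.33). Having been picked for likeness to receptors that were lower, these genes add no separate evidence of a fall. Scarb1 followed Fabp4, a fatty acid chaperone of adipocytes, endothelial cells and macrophages, with r = 0.987. In keeping with that r, Fabp4 had its 2 highest values in knockout replicates 1 and 4 (77383 and 88756, against 42640 to 62587 elsewhere).

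Stab1 encodes stabilin-1, a class H receptor of tissue-resident macrophages and sinusoidal endothelium that clears modified LDL and matrix fragments. Its counts were 68362, 67927, 81315 and 80861 in control and 63503, 71928, 64016 and 61300 in knockout libraries. Knockout replicate 2 lay above control replicates 1 and 2, so the groups overlapped. The difference was -0.19 (SE 0.10, interval -0.41 to 0.03, limma adjusted p = 0.296). Exons of Stab1 overlap those of Nt5dc2 on the opposite strand, and the sources used here do not say whether counting used strand.

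Olr1 encodes LOX-1, the lectin-like class E receptor for oxidised LDL that is best known from endothelium. Its counts were 22.9, 26.4, 28.4 and 21.0 in control and 26.4, 26.4, 24.4 and 32.4 in knockout libraries, so each value rests on few reads. The difference of 0.15 (SE 0.20, interval -0.30 to 0.59, limma adjusted p = 0.722) was not detectable at this depth. Olr1 is shown here because it was the only receptor with an 8-base match to 2 of the families, in a 3′ untranslated region of 2422 bases on the minus strand of chromosome 6.
Olr1 miR-23 site, chr6:129486242-129486271: tcaaacaccttAATGTGAAtggaatagcat
Olr1 miR-24 site, chr6:129485464-129485493: gctcttaacccCTGAGCCAtttcttctggc

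In the authors' deposited table, a DESeq2 comparison, Msr1, Cd68 and Lrp1 are the receptors with an adjusted p under 0.05 (5.27e-06, 1.26e-08 and 4.35e-07), and Olr1 is listed without one. The DESeq2 fit on recovered reads repeats this comparison and gave the same values for these receptors, so it is not separate evidence. Marco has a log2 difference of -0.23 in the authors' deposited table and of -0.82 in limma, where limma averages log values and DESeq2 models counts.

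**Figure D2:**
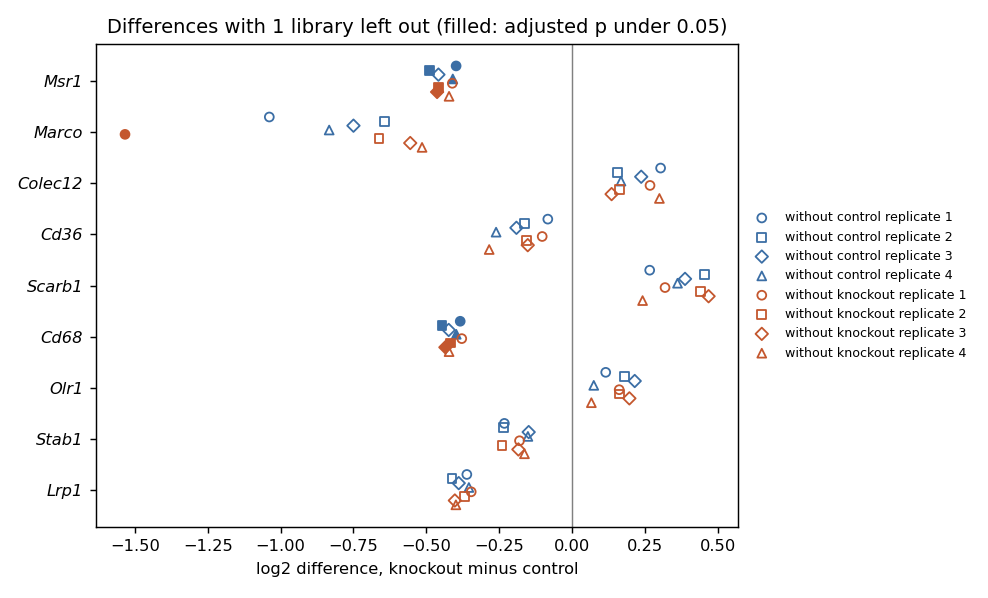
Log2 difference (horizontal axis, knockout minus control) of the 9 receptors when 1 of the 8 libraries is left out, with filled symbols where the limma adjusted p is under 0.05. Msr1 and Cd68 stay between -0.49 and -0.38 but are filled in 5 of 8 fits, and Marco is filled only without knockout replicate 1, at -1.53.

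The calls of Msr1 and Cd68 were lost without control replicate 3, knockout replicate 1 or knockout replicate 4. Their differences in those 3 fits were -0.46, -0.41 and -0.42 for Msr1 and -0.42, -0.38 and -0.42 for Cd68. The largest adjusted p over the 8 fits was 0.0546 for Msr1 and 0.0604 for Cd68, and the smallest 0.0194 and 0.0323. Of all genes 2.37%, 3.16%, 1.03% and 2.04% passed without control replicates 1 to 4, and 1.32%, 1.87%, 1.52% and 1.49% without knockout replicates 1 to 4.

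Of 15 general macrophage genes other than the receptors 3 fell, 0 rose and 12 did not pass, with a median of -0.28 and 14 of 15 differences below 0. Itgam, the integrin CD11b, measured 19876 ± 1400 and 14328 ± 767 (-0.47, SE 0.07, limma adjusted p = 0.0103), and the perforin-like Mpeg1 (-0.81, adjusted p = 0.0156) and Csf1r (-0.45, adjusted p = 0.0389) were the others that fell. With 1 library removed Csf1r passed only without control replicate 2, and Mpeg1 in all but the fit without knockout replicate 1. The mean log2 level of the list was 14.37 ± 0.24 in control and 14.05 ± 0.05 in knockout libraries, with no overlap. A two-sided exact permutation test gave p = 0.0286, the smallest that 4 against 4 libraries allow, or 0.196 when adjusted over the 11 marker lists.

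Markers of other cell types mostly had differences above 0. All 13 endothelial, all 11 fibroblast, all 9 measured adipocyte, all 10 T and NK cell, all 7 B cell and all 7 dendritic cell genes had a difference above 0, but 0 of these 57 passed in limma or edgeR, and 9 did in DESeq2. Relative to the general macrophage genes, a scale described with the receptors below, 27 of the 57 passed as higher and 0 as lower. Of all genes 9.18% passed as higher and 0.24% as lower on it. Medians as deposited were 0.51, 0.35, 0.29, 0.96, 0.51 and 0.58. Cldn5, an endothelial tight junction protein, measured 7530 ± 2270 and 11880 ± 2398 (0.69, limma adjusted p = 0.128). Of the 57 genes 25 had an unadjusted p under 0.05, beside 21.2% of all genes. Mural genes had a median of 0.36 (0 of 8 passed), mesothelial 0.43 (1 of 7 rose) and neutrophil 0.09 (0 of 3 passed). Eosinophil and mast cell genes had a median of 1.02 (of 7, 1 rose and 1 fell). The summed level of the 9 adipocyte genes ran from 4375 to 5804 in control and from 5999 to 7149 in knockout libraries. The sum of the 11 fibroblast genes ran from 194927 to 311170 and from 242093 to 341953. The exact permutation p of the mean log2 level was 0.0571 or more for each of these lists.

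**Figure D3:**
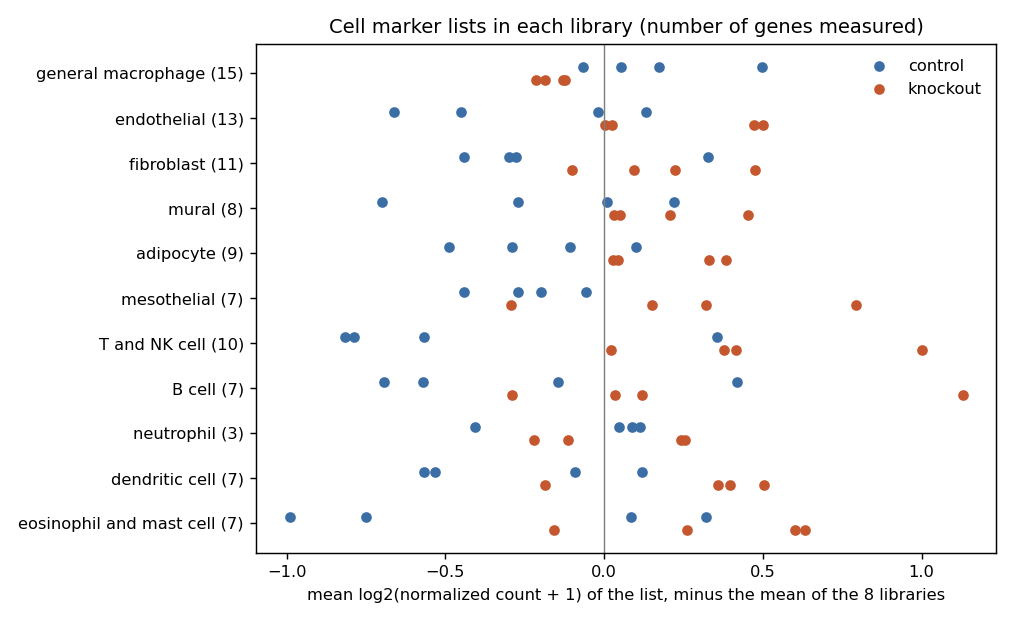
Mean log2(normalized count + 1) of each cell marker list in each library, minus the mean of the 8 libraries (horizontal axis), with the number of genes measured in brackets. All 4 knockout libraries lie below all 4 controls for general macrophage genes, while for most other lists knockout libraries tend to lie to the right with overlap.

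The receptors were therefore also expressed relative to the 15 general macrophage genes, none of which is one of the 9. This scaling raised the median of all genes to 0.33, and 9.42% of genes passed, 9.18% as higher and 0.24% as lower. On it, Msr1 differed by -0.11 (SE 0.12), Cd68 by -0.09 (SE 0.13) and Lrp1 by -0.05 (SE 0.14), with limma adjusted p of 0.451, 0.587 and 0.749. Relative to the macrophage genes, then, no difference was shown for these 3 receptors. Scarb1 differed by 0.69 (SE 0.20, limma adjusted p = 0.0465), the only one of the 9 to pass, and Colec12 by 0.54 (SE 0.17, adjusted p = 0.0559). On this scale endothelial markers had a median of 0.83 with 8 of 13 passing as higher, and adipocyte markers 0.62 with 4 of 9. Fibroblast markers had a median of 0.68 with 6 of 11 passing as higher, and mural markers 0.69 with 3 of 8. The part of those cells in Scarb1 and Colec12 was not tested. Relative to macrophage genes, Scarb1 was -1.66, -0.86, -1.17 and -1.70 log2 units in control and -0.54, -0.85, -0.996 and -0.22 in knockout libraries. Control replicate 2 lay within the knockout range. The same scaling turned the differences of Cd36 and Stab1 to 0.15 and 0.13, neither of which passed.

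**Figure D4:**
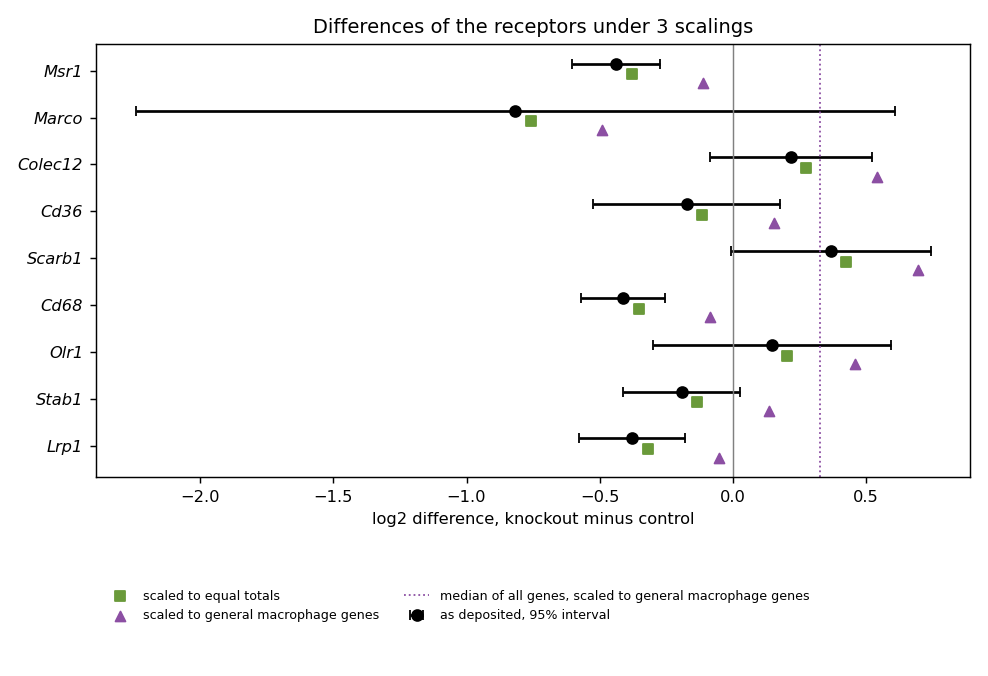
Log2 difference of each receptor (horizontal axis, knockout minus control) as deposited with its 95% interval, scaled to equal library totals, and scaled to general macrophage genes, with the median of all genes under the last scaling as a dotted line at 0.33. Msr1, Cd68 and Lrp1 have intervals below 0 as deposited and lie near 0 relative to macrophage genes, while Scarb1, Colec12 and Olr1 lie to the right of the dotted line.

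Of 14 other scavenger and lipid-binding receptors 2 fell, 1 rose and 11 did not pass, with a median of 0.10. Clec7a, the beta-glucan receptor dectin-1, had the largest fall. It measured 8447, 6915, 5942 and 7075 in control and 2755, 3289, 3608 and 3627 in knockout libraries (-1.09, SE 0.12, limma adjusted p = 0.00367), and it passed in each of the 8 fits with 1 library removed. Relative to general macrophage genes Clec7a differed by -0.77 (limma adjusted p = 0.0262), while 0 of the 9 lipoprotein scavenger receptors passed as lower on that scale. Trem2 fell (-0.42, limma adjusted p = 0.0388) but passed in 0 of those 8 fits, and Scarf2, a class F receptor named after its values were seen, rose from 1107 ± 99.5 to 1419 ± 108 (0.36, SE 0.08, limma adjusted p = 0.0472), passing in 1 of them. The mannose receptor Mrc1, the most abundant of this list, measured 42327 ± 4407 and 48255 ± 4935 (0.19, limma adjusted p = 0.330). Relative to general macrophage genes this list gave 4 higher and 1 lower, with a median of 0.42, where 9.18% and 0.24% of all genes passed. On that scale Trem2 no longer passed (-0.097, limma adjusted p = 0.580), and Mrc1 passed as higher (0.52, limma adjusted p = 0.0385).

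Lrp12, a smaller relative of Lrp1, fell from 3261 ± 523 to 2127 ± 227 (-0.61, SE 0.12, limma adjusted p = 0.0296), and with 1 library removed it passed only without control replicate 1 or 2. Relative to general macrophage genes it differed by -0.28 (limma adjusted p = 0.166). Lrp6, a co-receptor of Wnt signalling from the same family, measured 5872 ± 203 and 5508 ± 254 (-0.09, SE 0.05, limma adjusted p = 0.331).

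Of 15 measured ligands of these receptors 2 rose, 0 fell and 13 did not pass. Plat, tissue plasminogen activator and a ligand of LRP1, rose from 1493 ± 166 to 2028 ± 125 (0.45, SE 0.08, limma adjusted p = 0.0263). Thbs2, a thrombospondin that binds CD36, rose from 1121 ± 147 to 1612 ± 211 (0.52, SE 0.12, limma adjusted p = 0.0451). Both genes are also expressed by fibroblasts, and the part of fibroblasts or other cells in their rise was not tested. When 1 library was removed each passed only without control replicate 1. Apoe, a ligand of LRP1, differed by 0.01 (SE 0.18). Relative to general macrophage genes 5 of the 15 ligands passed, all higher, Plat and Thbs2 among them, where 9.18% of all genes passed as higher.

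Signalling partners of CD36 gave 0 calls among 17 in limma and in edgeR, with 9 at an unadjusted p under 0.05 and 7 in DESeq2 (6 lower and 1 higher). The tetraspanin Cd9 measured 13571 ± 1941 and 9786 ± 1216 (-0.47, limma adjusted p = 0.0676). Of 21 regulators of receptor expression 2 fell, Srebf2 (-0.48) and Csf1r. DESeq2 called 8 of the 21 as lower and 0 as higher, and 9 had an unadjusted limma p under 0.05. Relative to general macrophage genes, of which Csf1r is one, 0 of the 21 passed, with Srebf2 at -0.15 (limma adjusted p = 0.340) and Csf1r at -0.13 (0.426). As deposited, Pparg, the nuclear receptor that induces CD36, differed by 0.02 (adjusted p = 0.890). Of 18 genes that handle the imported lipid 1 fell, the lysosomal cholesterol transporter Npc1, from 8331 ± 338 to 6926 ± 235 (-0.27, SE 0.05, limma adjusted p = 0.0263), which passed, of the fits with 1 library removed, only without control replicate 2. Relative to general macrophage genes Npc1 did not pass (0.060, limma adjusted p = 0.701). DESeq2 called 6 of the 18 as lower and 0 as higher, and 8 had an unadjusted limma p under 0.05. Of all genes 10.9% passed in DESeq2 and 21.2% had an unadjusted limma p under 0.05. Receptor shedding genes gave 0 calls among 8 in limma and in edgeR, with 3 at an unadjusted p under 0.05 and 2 in DESeq2. On the macrophage scale 2 of 17 partners of CD36, 1 of 18 lipid-handling and 2 of 8 shedding genes passed, each higher. Of all genes 9.18% passed as higher and 0.24% as lower on that scale. The medians of these 4 lists as deposited were -0.21, -0.21, -0.18 and 0.08.

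**Figure D5:**
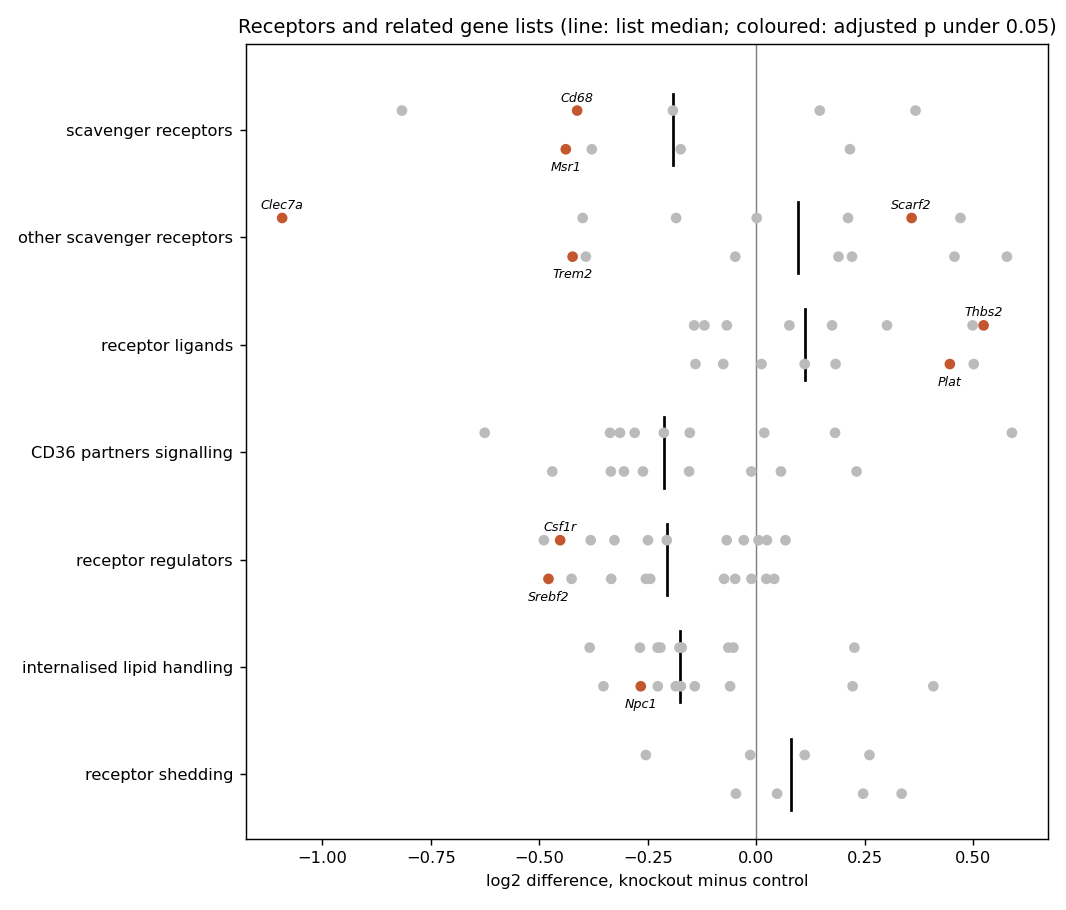
Log2 difference (horizontal axis, knockout minus control) of each gene in the 9 scavenger receptors and 6 related lists, with a line at each list's median and coloured, named points where the limma adjusted p is under 0.05. Clec7a at -1.09 is the lowest named point, and the only named points to the right of 0 are Scarf2, Plat and Thbs2.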

How the data were processed

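The expression table deposited by the authors holds normalized counts per gene (a signal of at least 0) in 1 column per sample. Tools listed in the submitters' processing notes are DESeq2, Salmon, cutadapt and FastQC, with the build mm10 and no versions or roles. Per the file headers, the authors also deposited a DESeq2 comparison with log2 fold changes, scores (standard error and test statistic) and p-values. Multiplying by 1 factor per sample gave whole reads for 100% of values, within 0.01 reads. In control replicate 4 the factor lies near 1, so low values alone cannot show it there. Recovered totals were 46621080, 36298146, 32667230 and 39096816 reads in control and 41495226, 31789395, 34603062 and 36582677 in knockout replicates 1 to 4. The smallest chi-square per gene between libraries of 1 group was 8.99, so no library was treated as a repeat.

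The test was limma 3.58.1 (R 4.3.3) on log2(value + 1) with an eBayes trend, two-sided, for genes with a mean of at least 10, without covariates; a log2 difference understates the change of low genes. Count models (edgeR 4.0.16, DESeq2 1.42.0) ran on recovered reads as alternatives. Scripts were tested on simulated data. The 9 receptors and the gene lists were chosen with earlier results of these data known. Genes named by rule are the 9, for each related list the 2 smallest p and the most abundant gene, and the 3 genes most correlated with a receptor (no predicted or Rik genes). Not every gene the rule names is described. Lyz2 (as the check of labels), Spi1, Pparg, Scarf2 and Cldn5, the endothelial gene with the highest difference, were named outside this rule. Positions, transcript lengths and 3′ untranslated regions of at least 30 bases came from GENCODE M21 on mm10, matched by symbol. Promoters were found for 6 of the 9 receptors. Some genes of the related lists are not reported here.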

Additional observations from a re-analysis of the deposited data

Results flagged for a closer look

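Samples that stood apart from the other 3 of their group by Dixon's ratio were found in 6 of 92 groups checked, where chance flags about 1 in 20. Marco at 698 in knockout replicate 1 is the one among the receptors (ratio 0.951). The others were Npc1 at 7825 in control replicate 2, Ctsd at 256997 in control replicate 1, Bace1 at 661 in control replicate 4 and Timp3 at 18127 in knockout replicate 4. The mean log2 level of neutrophil markers was 5.79 in control replicate 1, from 3 measured genes.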

How the results depend on the processing

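Depth limits Olr1, at 21.0 to 32.4 normalized counts. Across settings the receptors kept their direction, apart from Cd36 and Stab1 under scaling to general macrophage genes. Under that scaling 1494 genes and 1 receptor passed, and differences were 0.15 for Cd36, -0.11 for Msr1, 0.69 for Scarb1, -0.086 for Cd68 and 0.13 for Stab1. It also reversed Lrp6 (0.23), Snx17 (0.17), Cltc (0.13), Itgb1 (0.32), Npc1 (0.060), Scp2 (0.15), Adam17 (0.072) and C1qb (0.052). DESeq2 called 1557 genes in place of 573. Lrp1 passed with DESeq2 (-0.38), edgeR (-0.37) and a minimum mean of 50 (-0.38). Apoe was -0.0034 with DESeq2, and Itgb1 0.047 when totals were made equal. The cause of these shifts was not tested.

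With the replicate number as a block (replicate block) 7 genes and 0 receptors passed, at -0.44 for Msr1 and -0.41 for Cd68, with adjusted p of 0.184 and 0.202. Same-numbered libraries did not deviate together (r = -0.20, -0.20, -0.04 and -0.29). Differently numbered ones gave r from -0.26 to 0.34, so these values show no pairing by number but cannot exclude it.

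Without 1 library, 163 to 502 genes and 0 to 2 receptors passed. Differences ranged from -0.49 to -0.40 for Msr1, -0.45 to -0.38 for Cd68, -1.53 to -0.51 for Marco, -0.057 to 0.15 for Apoe and -0.066 to 0.029 for Itgb1. Mean marker levels differed by -0.40 to -0.22 for general macrophage and -0.041 to 0.17 for neutrophil genes. With 3 libraries against 4 the exact p cannot go below 0.0571.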
